A study of Mus musculus with 4 samples.

Results

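Peg3, Usp29, Igf2, Slc38a4 and Magel2 are 5 mouse genes of the imprinted class, whose copies inherited from father and mother are not used equally. They were chosen by the positions of GATA2 summits, the points of highest CUT&Tag signal within a peak: each gene has at least 1 summit inside it or within 100 kb of the gene body. The 5 are not all such genes, since 10 of 50 other protein-coding imprinted genes, listed further below, also met this condition. The rule found 7 summits in 6 peak intervals for these 5 genes, out of 995 summits in 945 intervals and 21631 protein-coding genes. Since the summits chose the genes, their presence and strength are a description and were not tested. CUT&Tag uses an antibody to direct a transposase to the chromatin that a protein occupies. The cells were BVSC+ germ cells (BVSC is a pair of reporter transgenes, Blimp1-mVenus and Stella-ECFP) from female fetal ovaries at E13.5, from C57BL/6J females mated with BVSC males. All 4 libraries share genotype, stage, sort and trypsin digestion. The 2 groups were 2 libraries with an anti-GATA2 antibody and 2 input libraries without antibody. The deposited list gives no value for a single library, so it holds no spread between replicates, and it does not separate the parental alleles. It was taken to be pooled over the GATA2 libraries from the word for a combined library in its peak names, which the labels do not state.

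In somatic tissues an imprinted domain holds several genes that follow 1 control region, a stretch of DNA methylated on only 1 parental copy. The mark laid down in oocyte or sperm decides which copy is read. In fetal germ cells of both sexes these inherited marks are erased before new ones are set, so the genes are called imprinted here by what they do in the rest of the body. GATA2 is a zinc finger transcription factor best known from blood formation and from the trophoblast of the placenta, where several imprinted genes are also active.

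The 7 summits had folds of 3.08 to 9.49, with a median of 4.29, against a median of 4.15 (quartiles 3.44 and 5.22) over the whole list. The fold is the peak caller's ratio of signal to local background, with 1 added to both. A q of at most 0.05, the caller's significance adjusted over the genome, was reached by 4 of the 7 and by 67.7% of all summits. Between 6 and 24 GATA2 fragments lay at each of the 7 summits, numbers solved from the deposited fold and p-value, against a list median of 9. Intervals given in brackets after fragment numbers are 95% Poisson intervals and cover counting error only. They overlap for most pairs of these summits, and the 24 fragments near Slc38a4 (15.4 to 35.7) stand clear of the 7 at Usp29 (2.81 to 14.4) and the 6 at Magel2 (2.20 to 13.1).

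**Figure D1:**
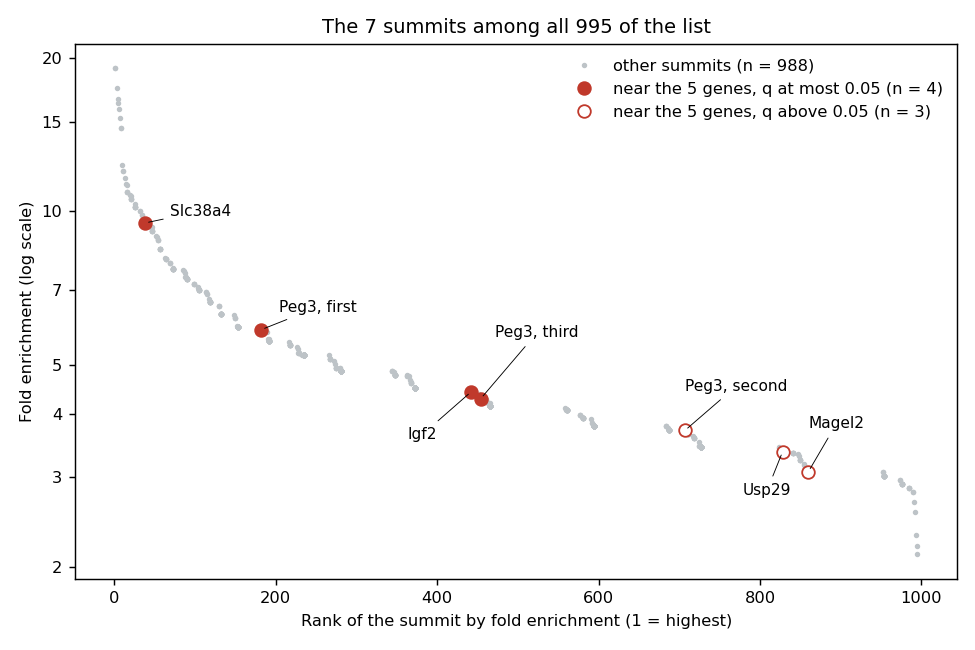
Fold enrichment (log scale) of all 995 summits against their rank, with the 7 summits near the 5 genes in red, filled where q was at most 0.05. The Slc38a4 summit ranks 38 at 9.49-fold and the Magel2 summit ranks 860 at 3.08-fold, so the 7 are spread over most of the list.

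Peg3 and Usp29 held 4 of the 7 summits, all within 2 kb of the place where the 2 genes start. Peg3 (GRCm38, chromosome 7, 6703892 to 6730462, minus strand) encodes a large zinc finger protein read from the paternal copy and known for its role in growth and maternal care. Usp29 (chromosome 7, 6730559 to 6967220, plus strand) encodes a ubiquitin-specific protease and is also read from the paternal copy. The genes run away from each other, and only 96 bp separate their annotated bodies. The control region of the domain is known to lie over this shared start and the first part of Peg3, and its limits are not in the annotation used. The letters between the 2 gene bodies, from the RefSeq promoter table of GRCm38.p6, are shown because summits flank them on both sides. They are chr7:6730463-6730558, plus strand, with CG pairs, the sites of DNA methylation, in capitals.
Peg3-Usp29 gap: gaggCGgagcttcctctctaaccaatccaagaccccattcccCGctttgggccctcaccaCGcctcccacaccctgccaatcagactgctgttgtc
The gap holds 3 CG pairs and is 60.4% G and C. The table's 300-base windows, from 250 bases before an annotated start to 50 after it, hold 13 CG pairs at Peg3 and 17 at Usp29, against a median of 7 (quartiles 3 and 20) over 32851 windows. These 2 windows overlap each other, and none of the 3 peak intervals reaches them.

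The first and strongest of these summits lay inside Peg3, at 6728641, 1.82 kb from the 5′ end of the gene body. It had a fold of 5.86 (−log10 q 3.80) on 16 fragments (9.15 to 26.0) and ranked 182 of 995. The second lay 176 bp away in the same interval (6728298 to 6728962, 665 bp), at 6728817. It had 17 fragments (9.90 to 27.2), as many as the first within counting error, and yet a fold of only 3.71, and its −log10 q of 0.23 missed the 0.05 limit on q. The control behind the second summit was 1.00 fragment per position, against 0.203 at the first and 0.0608 across the genome. Each GATA2 fragment enters the fold at a scale of 0.378, so 17 fragments and a control of 1.00 are not in the same unit. These controls are small counts, and their counting error was not worked out, so the difference in fold may rest on few control fragments. The order of these 2 summits by fold is thus not their order by fragments.

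The third summit, at 6729541, lay 921 bp inside the 5′ end of Peg3 in an interval of 207 bp (6729449 to 6729655). Its fold was 4.29 on 11 fragments (5.49 to 19.7), with a −log10 q of 1.44. The fourth was the only one inside Usp29, at 6732384, 1.83 kb past the start of the gene (interval 6732380 to 6732585). It was the weakest of the group, at 3.37-fold on 7 fragments (−log10 q 0.23). The 4 summits spanned 3.74 kb, and 3 of them lay on the Peg3 side. For Usp29, which extends over 237 kb, no other summit was found inside or within 100 kb.

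**Figure D2:**
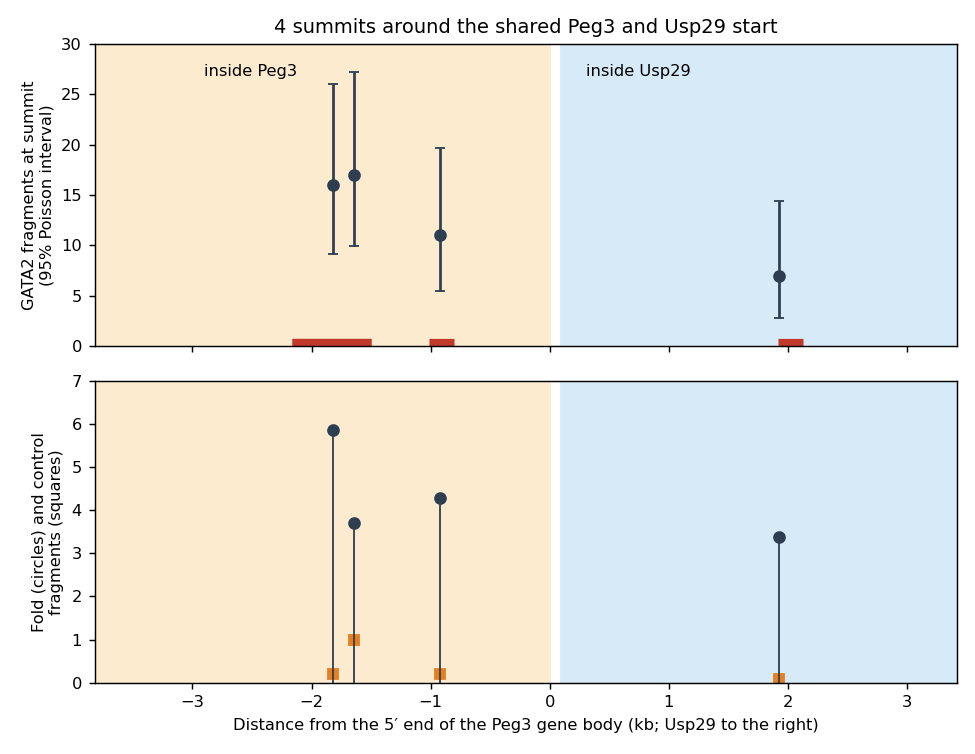
Fragments at the 4 summits around the Peg3 and Usp29 start with 95% Poisson intervals and the peak intervals as red bars (top), and fold and control fragments per position (bottom), by distance from the 5′ end of Peg3. The second summit has 17 fragments, close to the 16 of the first, but the control there is 1.00 and its fold is 3.71 against 5.86.

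Both genes reach the same 4 summits, and so does Zim1, a neighbouring zinc finger gene read from the maternal copy, 32.1 kb from the nearest of them. Judged by the Jaccard index (shared summits over all summits within 100 kb), Usp29 and Zim1 were the only protein-coding genes with an index of at least 0.5 to Peg3, both at 1. At least 4 summits inside or within 100 kb were found for 0.421% of protein-coding genes, and at least 3 inside the gene body for 0.0277% (6 genes, Peg3 among them). Those genes share the property that the rule selects on, and the percentages are given as background only. Peg3 reaches 3 only by counting both the first and the second summit, which share an interval. With only summits of q at most 0.05, 2 were left inside Peg3. The control was above its genome-wide level, by more than 1%, at all 4 summits around the Peg3 and Usp29 start and at 29.9% of the list. These 4 summits lie within 3.74 kb, so they are not 4 separate readings of the control. At the fourth the control was 0.0812 fragments per position, slightly above the genome-wide 0.0608. The counting error of the control was not worked out. The part of this raised control in the position or the strength of the summits was not tested.

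Igf2 had 1 summit, placed between the gene and its partner H19. Igf2 (chromosome 7, 142650768 to 142666816, minus strand) encodes a fetal growth factor read from the paternal copy, and H19 is a noncoding RNA read from the maternal copy. Their shared control region lies just upstream of H19, on the side that faces Igf2. There CTCF binds the unmethylated maternal copy and keeps Igf2 from enhancers beyond H19. The summit, at 142611255 (interval 142611157 to 142611445, 289 bp), lay 39.5 kb past the 3′ end of Igf2 and 33.1 kb from H19. It therefore stood 45.6% of the way across the 72.6 kb between the 2 genes, measured from H19. Its fold was 4.42 on 10 fragments (4.80 to 18.4), with a −log10 q of 1.55, and it ranked 442. The control there was 0.0812 fragments per position, slightly above the genome-wide 0.0608. The 4 annotated Igf2 starts all lay at least 46.2 kb from it.

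Igf2 was the nearest protein-coding gene, but a noncoding gene was nearer. The summit lay inside Gm33148, a long noncoding RNA gene (142591659 to 142620811), and 96 bp past 1 of its 5 annotated starts. The window of this start is shown because the interval reaches into it, which was the case for no window of the 5 genes. It is chr7:142610909-142611208, plus strand, and the bases in capitals are the 52 that lie inside the interval.
Gm33148 window: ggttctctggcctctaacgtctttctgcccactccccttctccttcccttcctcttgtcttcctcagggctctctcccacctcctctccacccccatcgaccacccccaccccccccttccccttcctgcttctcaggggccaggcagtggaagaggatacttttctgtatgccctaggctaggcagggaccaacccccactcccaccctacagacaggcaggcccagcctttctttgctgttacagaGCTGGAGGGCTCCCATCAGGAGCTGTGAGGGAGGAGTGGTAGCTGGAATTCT
The window holds 2 CG pairs, fewer than the median window. It contains none of the GATA words searched on both strands (AGATAA, and with other outer letters AGATAG, and also TGATAA, and lastly TGATAG), which 29.8% of all windows hold. The rest of the interval, the summit included, lies outside the table. Within 100 kb, Ins2, an insulin gene known to be imprinted in the yolk sac, reached the same single summit as Igf2 (Jaccard index 1). Mrpl23 and Tnnt3 shared it at an index of 0.5, since they also reach a summit inside Tnnt3 at 142499402 (3.79-fold). That summit was the nearest one to Igf2 beyond the window, at 151 kb.

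Magel2 had the weakest summit of the 5 genes. Magel2 (chromosome 7, 62376979 to 62381640, plus strand) encodes a MAGE family protein that acts in endosomal protein sorting, and belongs to the domain of Prader-Willi syndrome. The control region of this domain lies at the Snrpn promoter. The summit, at 62392751 (interval 62392687 to 62393004, 318 bp), lay 11.1 kb past the 3′ end of Magel2, 24.8 kb from Mkrn3 and 42.8 kb from Ndn. It had a fold of 3.08 on 6 fragments (2.20 to 13.1) with a −log10 q of 0.30, which missed the 0.05 limit on q, and the control there was at the genome-wide level. Only 4.42% of summits in the list had a lower fold. The 4 annotated starts of Snrpn were 1943 to 2388 kb away, so the summit was far from the control region.

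The Magel2 summit also lay inside Gm32061, a long noncoding RNA gene of 85.6 kb (62337794 to 62423399) that spans Ndn, Magel2 and Mkrn3. Mkrn3, a ring finger protein gene, Ndn, a MAGE family gene, and Peg12, a gene of the FRAT family, are all read from the paternal copy and reached this summit and no other within 100 kb (Jaccard index 1 for each). A stronger summit lay just beyond the limit, 146 kb from Magel2 at 62230811, with a fold of 7.35 and a −log10 q of 7.02. With a wider window it would have been assigned to this domain as well.

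Slc38a4 had the strongest summit of the 5 genes and the one farthest from its gene. Slc38a4 (chromosome 15, 96994816 to 97055956, minus strand) encodes a sodium-coupled transporter of neutral amino acids. It is read from the paternal copy and is strongly expressed in placenta. The summit, at 96922367 (interval 96922105 to 96922762, 658 bp), had a fold of 9.49 on 24 fragments (15.4 to 35.7) and a −log10 q of 12.9, and ranked 38. The control there was at the genome-wide level. It lay 72.4 kb past the 3′ end of the gene and 134 kb from the 5′ end, where the differentially methylated promoter of the gene is known to lie. No other protein-coding gene had this summit within 100 kb, and the next one on that side, Slc38a2, a related transporter gene, was 223 kb away.

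The nearest annotated feature to the Slc38a4 summit was Rpl10a-ps3, a ribosomal protein pseudogene 357 bp away (96922724 to 96923440). The interval overlapped it by 39 bp at its edge. The sources used here do not say how reads shared with related ribosomal protein sequences were placed. Beyond 100 kb the nearest summits lay 317 kb on one side of Slc38a4 (3.79-fold) and 503 kb on the other (4.50-fold), so the summit stood alone.

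**Figure D3:**
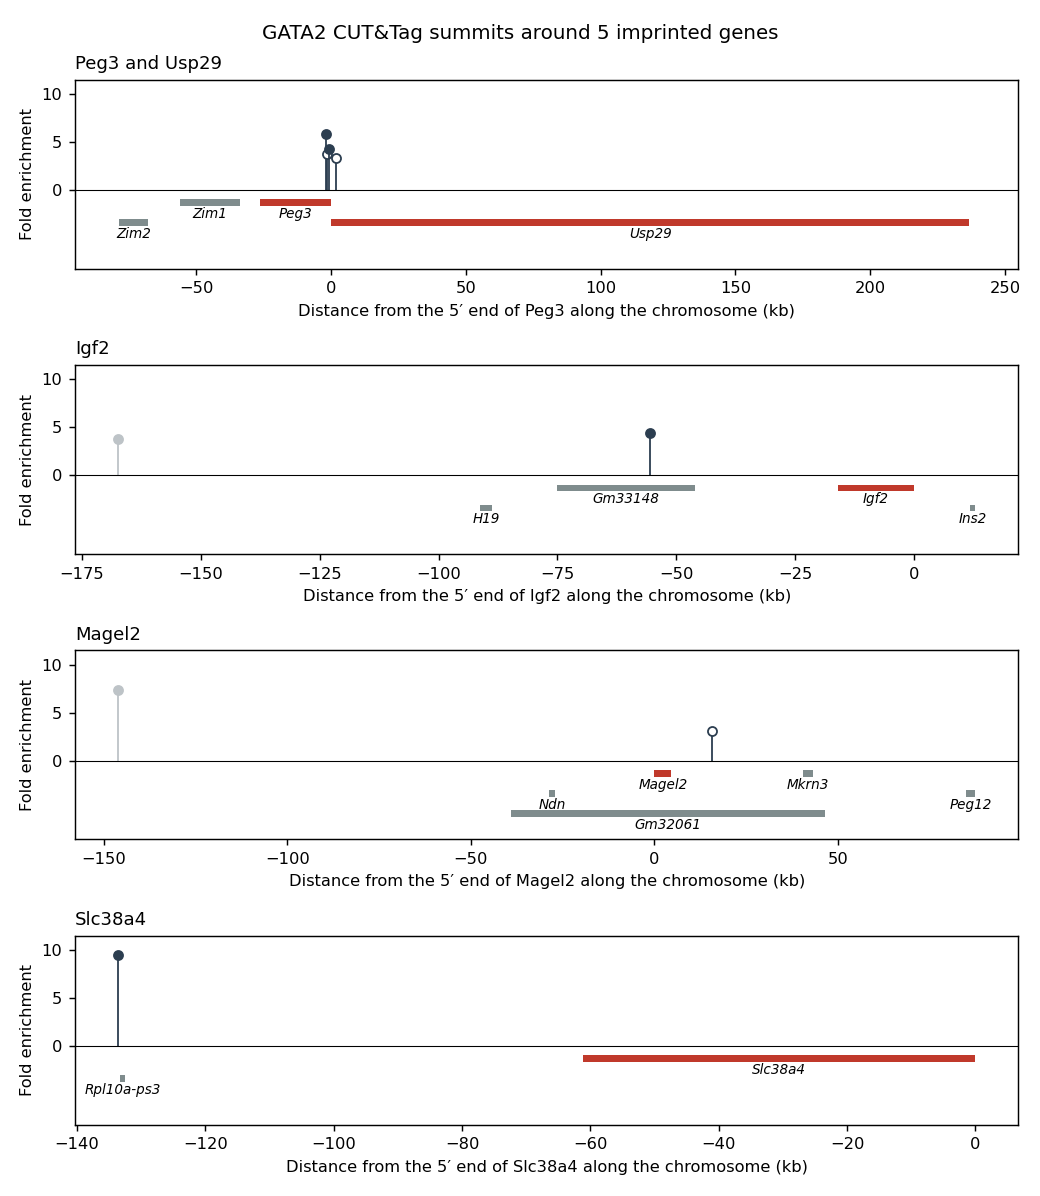
Fold enrichment of summits (stems) by distance from the 5′ end of the named gene, with the 5 genes as red bars and neighbours as grey bars; circles are filled where q was at most 0.05, and pale stems lie beyond 100 kb. Summits flank the gene start only at Peg3 and Usp29 and lie 11.1 kb, 39.5 kb and 72.4 kb past the 3′ end of Magel2, Igf2 and Slc38a4. The only summit on the Usp29 side of that start had a q above 0.05.

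The single summits of Igf2, Magel2 and Slc38a4 thus lay past the 3′ end of the gene, and those of Peg3 and Usp29 within 2 kb of an annotated start, inside 1 gene and upstream of the other. How often summits lie on either side of other genes was not counted. A summit inside the gene body was present in 2.08% of protein-coding genes, and 3.86% were the nearest protein-coding gene to a summit within 100 kb. All 5 genes met the second condition, and 2 of them, Peg3 and Usp29, were also the nearest when noncoding genes and pseudogenes were counted. The genes were chosen for having summits within 100 kb, so the percentages are background only. At a q of at most 0.05, 3 of the 5 were still the nearest protein-coding gene.

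Letters of the promoter windows matched at about the rate of all windows. A GATA word was present in 3 of the 10 windows of the 5 genes (30%), against 29.8% of all windows. It occurred once in the Magel2 window and once each in 2 of the 3 Slc38a4 windows, and in none of the windows at Peg3, Usp29 and Igf2. The word GCCATNTT, a form of the YY1 recognition sequence, was searched because YY1 is known to bind the control region at Peg3. It was present on either strand in 6.05% of all windows. It occurred in 1 of the 10 windows, at Slc38a4, and in none at Peg3 or Usp29. The windows end 50 bases past a start, so the part of the control region inside Peg3 was largely not searched. No reading of YY1 sites in that region follows from these windows. No summit lay in the window of any of the 5 genes, and the sequence under their summits was not used here.

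The 5 genes were then set beside a list of 68 mouse imprinted genes in 24 domains, of which 67 were matched to the annotation. A summit lay inside or within 100 kb of 19 of the 67 genes (28.4%). Among protein-coding genes the share was 15 of 55 (27.3%) with the 5 genes and 10 of 50 (20%) without them, against 14.9% of all protein-coding genes. With only summits of q at most 0.05 the shares were 7 of 55 (12.7%) and 3 of 50 (6%), against 10.2% of all protein-coding genes, so without the 5 genes the share then lay below the background. Genes of a domain are neighbours and share summits, so the 19 genes rest on 10 summits in 6 domains, and the other 18 domains had none. Leaving out the 5 genes does not leave out their summits. Zim1, Ins2, Ndn, Mkrn3 and Peg12 are still counted through them, and Zim1 and Ins2 also at a q of at most 0.05. Only Nap1l4, Phlda2, Cdkn1c, Slc22a18 and Dio3 rest on other summits. The shares without the 5 genes are therefore not free of the selection. The median distance to the nearest summit was 441 kb over the protein-coding genes of the list, 580 kb without the 5 genes and 707 kb over all protein-coding genes. No test was made, since the genes were chosen with the summits known.

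A summit was found for 7 of 28 maternally read genes (25%) and for 12 of 37 paternally read ones (32.4%). All 5 genes chosen for their summits are among these 12, and without them the paternal count was 7 of 32 (21.9%). Apart from Dio3, the paternal genes still counted were reached through the summits that chose the 5 genes. Among the maternally read genes, Zim1, Zim2 and H19 also lay within 100 kb of such summits. These counts are therefore not free of the selection, and no difference between the parental groups is read from them. Outside the domains of the 5 genes, the Kcnq1 domain had a summit inside Nap1l4, a histone chaperone gene (3.44-fold on 7 fragments, −log10 q 0.30). The growth inhibitor genes Phlda2 and Cdkn1c lay 46.1 and 88.2 kb from it. Dio3, which encodes a thyroid hormone deiodinase, had a summit 83.4 kb away (4.86-fold on 11 fragments, −log10 q 3.37). Just beyond the limit were Kcnq1 (122 kb), Osbpl5 (126 kb) and Inpp5f (149 kb). The imprinted genes of 18 domains lay 149 to 13060 kb from a summit, with those around Peg10 and Sgce the farthest.

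**Figure D4:**
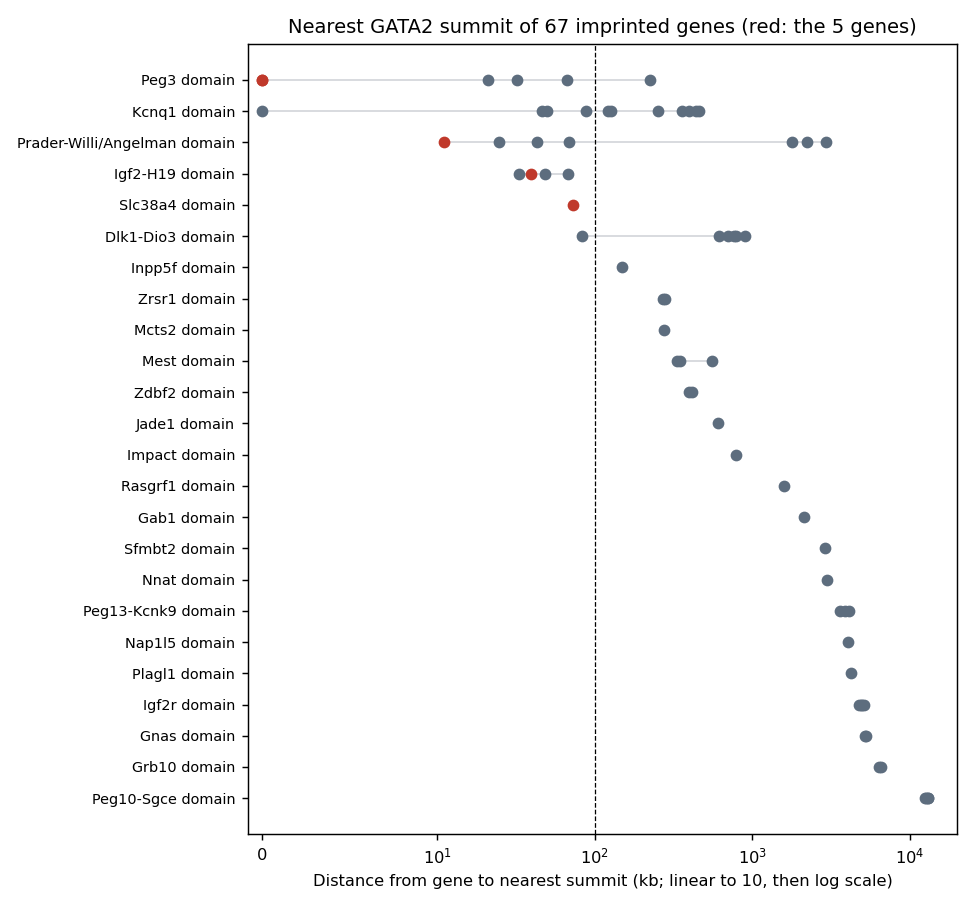
Distance from each of 67 imprinted genes to its nearest summit, by domain, on an axis that is linear to 10 kb and logarithmic beyond; the dashed line marks 100 kb and red points the 5 genes, with Peg3 and Usp29 both at 0. Genes of 6 of the 24 domains lie left of the line.

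Peaks do not measure expression, so the sorted cell type could not be checked by transcript levels. Summits lay within 100 kb of 3 of 5 germ cell markers (Dppa3, Prdm1 and Pou5f1, the first 2 of which name the reporter transgenes), 1 of 5 somatic gonad markers (Amhr2), 0 of 5 endothelial markers and 2 of 5 blood markers (Spi1 and Itgam), against 14.9% of all protein-coding genes. Lists of 5 genes are too short to read these counts as a sign of cell identity. Whether the reporter transgenes add to the signal near Dppa3 and Prdm1 was not tested.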

How the data were processed

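The data were 1 peak list made by the authors from 4 CUT&Tag libraries. Per the submitters' processing notes, peaks rest on build GRCm38 (mm10) and the tools included MACS2 2.2.6, Bowtie2 2.3.5.1 and Trimmomatic 0.39, without roles or parameters. The deposited fold is a ratio over local background. Significance at a summit is deposited as −log10 of p and of q. The deposited score restates p (10 times −log10 p, rounded down, in 995 of 995 entries) and was not used further. Interval starts and summits were converted to 1-based positions.

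Genes came from the RefSeq table of GRCm38.p6, which gives no exons or UTRs. A gene was assigned every summit inside its body or within 100 kb. Fragment numbers were solved from fold and p, taking the fold as (pileup + 1) / (background + 1) and p as a Poisson tail. A scale of 0.378 and a genome-wide background of 0.0608 gave whole numbers (within 0.001) for 995 of 995 summits. The solution was tested on simulated data. At 6 summits, none of them near the 5 genes, more than 1 solution was possible. Total depth per library is unknown.

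The genes and lists (imprinted genes, markers of germ cells, somatic gonad, endothelium and blood) were chosen with earlier results of these data known. Named genes are the 5 genes, the nearest genes to their summits, other genes of their domains, genes sharing at least 0.5 of their summits by the Jaccard index, and listed imprinted genes near a summit; Kcnq1, Osbpl5, Inpp5f, Slc38a2, Peg10 and Sgce were named after their distances were seen. No test was made, since no value belongs to a single replicate. Windows, significance limits and the annotation were varied. Python 3.11.15, pandas 2.3.3 and SciPy 1.17.1 were used.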

Additional observations from a re-analysis of the deposited data

How the results depend on the processing

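Of 36 values recomputed under alternatives fixed for the 5 results, 16 stayed within 1.5 times the reported value and 20 did not. As reported, 5 genes had a summit, 7 summits were reached, 5 genes were the nearest to a summit, 14.9% of protein-coding genes and 19 listed imprinted genes had a summit. With a 10 kb window these were 2 genes (Peg3 and Usp29), 4 summits, 2 nearest genes, 4.60% and 3 listed genes. In gene bodies alone they were 2, 4, 2, 2.08% and 3. With a 50 kb window, which loses Slc38a4, the background was 9.68%. At a q of at most 0.05, which loses Magel2, 4 summits, 3 nearest genes and 11 listed genes were left. At a −log10 q of 5 or more there were 1 gene (Slc38a4), 1 summit, 1 nearest gene, 3.10% and 1 listed gene. With noncoding genes and pseudogenes counted, 2 of the 5 genes were the nearest. Narrower windows and stricter limits leave fewer summits by construction. With 1 summit per interval or with whole intervals, no value moved by over 1.5 times. No paired analysis was possible because the list gives no value for a single replicate, and for the same reason no replicate could be left out. Single summits of 6 to 24 fragments limit any ranking among them.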

Other observations

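Runs of closely spaced peaks were rare in the list, and 1 of them was at Peg3 and Usp29. When summits with steps of at most 5 kb were joined, a grouping chosen after the values were seen, the 995 summits formed 905 groups. Of these, 3 (0.331%) held 3 or more intervals. They lay at Id3, which encodes an inhibitor of E proteins (4 intervals on chromosome 4), at Prdm1 (3 intervals on chromosome 10), whose sequence is part of the reporter transgene, and at the Peg3 and Usp29 start (3 intervals). With steps of at most 3 kb there were 3 such groups and with 10 kb 6, and the Peg3 and Usp29 group held 3 intervals in both. With only summits of q at most 0.05 there were 2 such groups, and 2 intervals were left at Peg3, both inside the gene.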
